A study of Mus musculus with 48 samples.

Results

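The genes described here are 10 members of the Notch pathway among 18194 genes that a probe of the array names alone: the receptors Notch1, Notch2 and Notch3, the ligands Dll1, Dll4, Jag1 and Jag2, and the target-family genes Hes1, Hes6 and Hey1. They were chosen by name, and each is represented by its probe with the highest mean over 48 arrays, out of 18 probes that name a member alone. The authors sorted cells from mice labelled with a CD-1 background, with 3 to 5 arrays per population: progenitors at E11 (n = 4) and E15 (n = 3), acinar cells (n = 3), endocrine progenitors (n = 3) and Neurog3-null cells (n = 4) at E15, beta cells of 5 ages, namely E15 (n = 4), E17 (n = 3), newborn P1 (n = 3), juvenile P15 (n = 4) and adult (n = 4), alpha cells of P1 (n = 4) and adult mice (n = 5), and adult duct cells (n = 4). Embryonic stages are named by the whole day without the fraction that the labels add, and P1 stands for the stage labelled P0. The titles of the Neurog3-null samples give E1.5, and E15 was taken from their stage label. Adult mice had an age of 8 to 12 weeks. All groups are labelled wild type except the Neurog3-null cells, which carry Ngn3-null or Neurog3-null as genotype.

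The way each population was marked limits it as a model. E11 progenitors were GFP-positive cells of the dorsal pancreas of Sox9-eGFP embryos, and E15 progenitors, acinar cells and endocrine progenitors were sorted with surface antigens from pancreata that carried a Neurog3-eGFP transgene. The Neurog3-null cells came from embryos homozygous for an eGFP knock-in at Neurog3, so that genotype and reporter allele cannot be told apart in any comparison with them. Beta cells carried a GFP driven by the mouse insulin promoter, alpha cells a Venus reporter of glucagon, and duct cells were isolated by CD133. Fetal samples pooled many embryos and adult samples several mice. The labels do not say what separated the replicates of a population, so p-values measure the spread between these samples.

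Notch receptors are activated by ligands on neighbouring cells, after which their intracellular part is cut free and acts in the nucleus with the DNA-binding protein RBPJ. Classical targets such as Hes1 and Hey1 encode repressors, and Hes1 is known to hold back Neurog3, the factor that starts the endocrine programme. Cells that gain Neurog3 are known to present ligands to their neighbours, and Hes6 encodes a relative of Hes1 that opposes it.

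Values are log2 expression, so that a difference of 1 is a 2-fold difference, and differences run from the first population named to the second. A gene was called changed at an adjusted p under 0.05 in limma with a difference of at least 1. Means are given ± SD over the arrays of a population (n above), differences with their SE. Levels are compared within a gene and not between genes, because probes differ in brightness. In sorted bulk RNA, fewer cells of a type and less RNA per cell cannot be told apart.

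Neurog3 and marker lists were used to look at what the labelled populations carried. Neurog3 gave 13.40 ± 0.05 in endocrine progenitors and 10.57 ± 0.32 in Neurog3-null cells by its brighter probe, and 11.56 ± 0.15 against 5.48 ± 0.26 by its other probe. Where either probe lies relative to the deleted part is not known here, so the brighter probe's remaining signal in null cells says nothing about the labels. E15 progenitors also carried Neurog3, at 11.68 ± 0.28 by the brighter and 8.86 ± 0.42 by the other probe. E15 beta cells gave 11.16 ± 0.37 and 8.02 ± 0.51. Marker lists of other cell types were summarised as mean log2 levels. The 16 macrophage markers were high in Neurog3-null cells (10.86 to 11.62), adult beta cells (10.86 to 11.72) and duct cells (10.72 to 12.06), with 15 of 16 above 100 on the linear scale in each, against 5.88 to 6.07 in endocrine progenitors, with 4 of 16. All 14 endothelial markers exceeded 100 in acinar cells (mean 9.04), E17 and P1 beta cells (9.85 and 10.75) and P1 alpha cells (9.24), and 2 of 14 in endocrine progenitors (5.23). All 12 mesenchyme and pericyte markers exceeded 100 in E17 and P1 beta cells (11.36 and 11.92) and 5 of 12 in P15 beta cells (6.19). Acinar markers of adult alpha cells lay at 11.02 and 11.46 in replicates 1 and 2 and between 6.85 and 7.51 in the other 3. The 6 Schwann and neural crest markers were highest in P1 beta (8.67) and P1 alpha cells (8.52). The 4 alpha cell markers were also high in E15 beta cells (12.05) and E11 progenitors (11.64), against 12.14 in P1 alpha cells. Below, markers of other cell types that moved with a comparison are given beside it, mostly with the number called of the number tested.

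Each member varied between populations, with means apart by 2.31 (Notch1) to 5.66 (Notch3). When the 13 means of a gene were ordered, neighbours in that order were separated without overlap of their arrays in 0 of 12 pairs for Jag2 and at most 4 of 12 for Notch2, Dll4 and Hes1. Ordering puts the closest means side by side, which favours overlap, and overlap does not show that neighbours were equal. The count was not made for all genes.

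**Figure D1:**
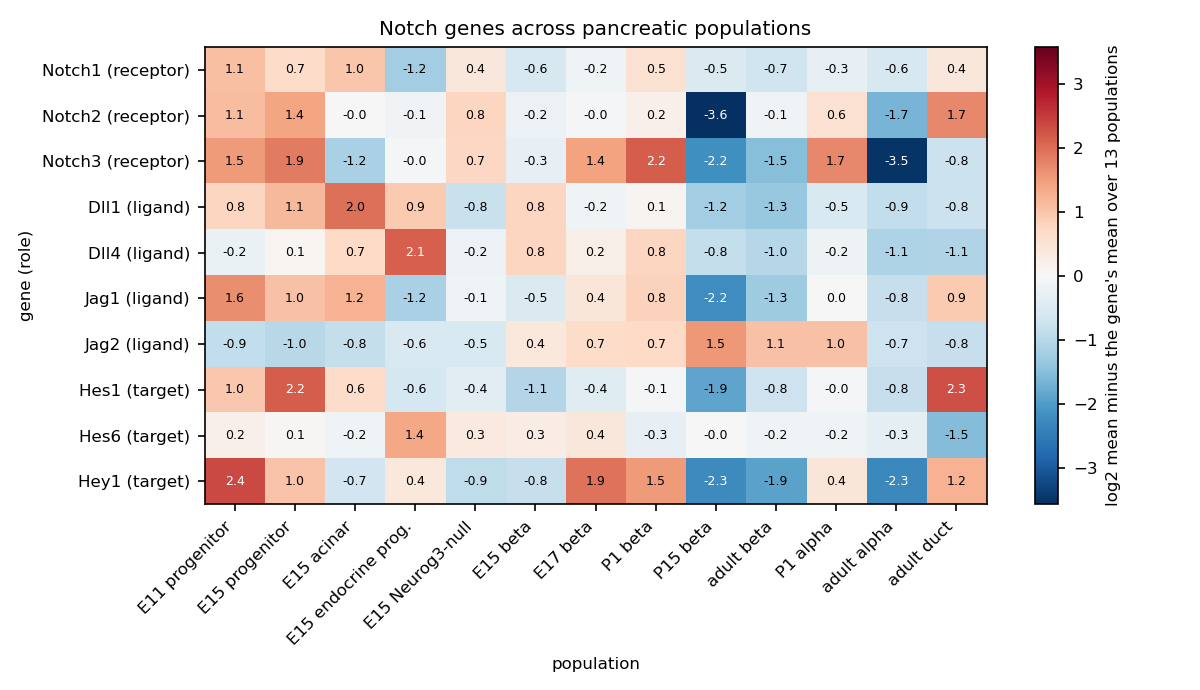
Log2 mean of each gene in each population minus the gene's mean over the 13 populations (colour and number), with populations in columns and genes in rows. Hes1 stands highest in E15 progenitors and adult duct cells, Dll4 and Hes6 stand highest in endocrine progenitors, and Notch3 covers the widest span.

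From E15 progenitors to endocrine progenitors Hes1, all 3 receptors and Jag1 fell while Dll4 and Hes6 rose. Of the 10 members 7 were called, 2 up and 5 down, where 10.7% of 14405 genes were called up and 11.8% down. The median difference was -1.09 over the members and -0.03 over all genes. Over this step 7 of 12 mesenchyme and pericyte markers were called up (mean 6.58 to 7.99) and 3 of 12 acinar markers down (11.15 to 9.50), and their part was not tested.

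Hes1, the classical target, read 10.45, 10.21 and 10.20 in E15 progenitors and 7.24, 7.37 and 7.92 in endocrine progenitors. The arrays of the populations lay far apart, and Hes1 fell by 2.78 ± 0.26 on the log2 scale (6.85-fold, adjusted p = 3.6e-11). Hey1, the other classical target, read 9.53, 9.27 and 9.55 against 8.58, 8.80 and 9.10. Those arrays did not overlap, but the difference of -0.63 ± 0.39 did not pass the test (adjusted p = 0.23). Hes6 read 12.20, 12.07 and 12.08 in progenitors and 13.42, 13.46 and 13.42 in endocrine progenitors. That was a rise of 1.32 ± 0.14 (adjusted p = 4.6e-10), and a second Hes6 probe rose by 1.89.

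Notch1 read 11.64, 11.57 and 11.73 in progenitors and 9.61, 9.52 and 10.12 in endocrine progenitors. It fell by 1.90 ± 0.19 (adjusted p = 1.2e-10), and endocrine progenitors held its lowest mean of all populations. Notch2 fell by 1.55 ± 0.29 (adjusted p = 4e-05) and Notch3 by 1.88 ± 0.38 (adjusted p = 9.6e-05), each with no overlap of arrays. The second probes of Notch1 and Notch3 were also called down, whereas the second Notch2 probe, which exceeded 100 on the linear scale in 5 of 48 arrays, was not called. With the probes of a gene averaged, the Notch2 difference here was -0.97 and not called.

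Among ligands, Dll4 went from 7.07, 7.04 and 7.17 to 9.21, 9.00 and 9.33. This was a rise of 2.09 ± 0.17 (4.25-fold, adjusted p = 1e-12). Dll4 is also a known endothelial gene. Endothelial markers were at 5.45 in progenitors and 5.23 in endocrine progenitors, and their part was not tested. Jag1 went from 11.56, 11.62 and 11.46 to 9.12, 9.34 and 9.56. It fell by 2.20 ± 0.25 (adjusted p = 1.7e-09), and all 3 of its probes were called down. Dll1 (-0.22 ± 0.36, adjusted p = 0.69) and Jag2 (0.45 ± 0.26, adjusted p = 0.19) did not pass the test.

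The 42 other pathway genes that could be tested were called up in 7 cases and down in 6, with a median of 0.11. Nrarp, a feedback inhibitor and known Notch target, fell by 4.03 ± 0.46. Mfng, a Fringe enzyme that sugars receptors, rose by 3.64 ± 0.26, and Dll3, a ligand that does not activate receptors, rose by 2.69 ± 0.23.

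**Figure D2:**
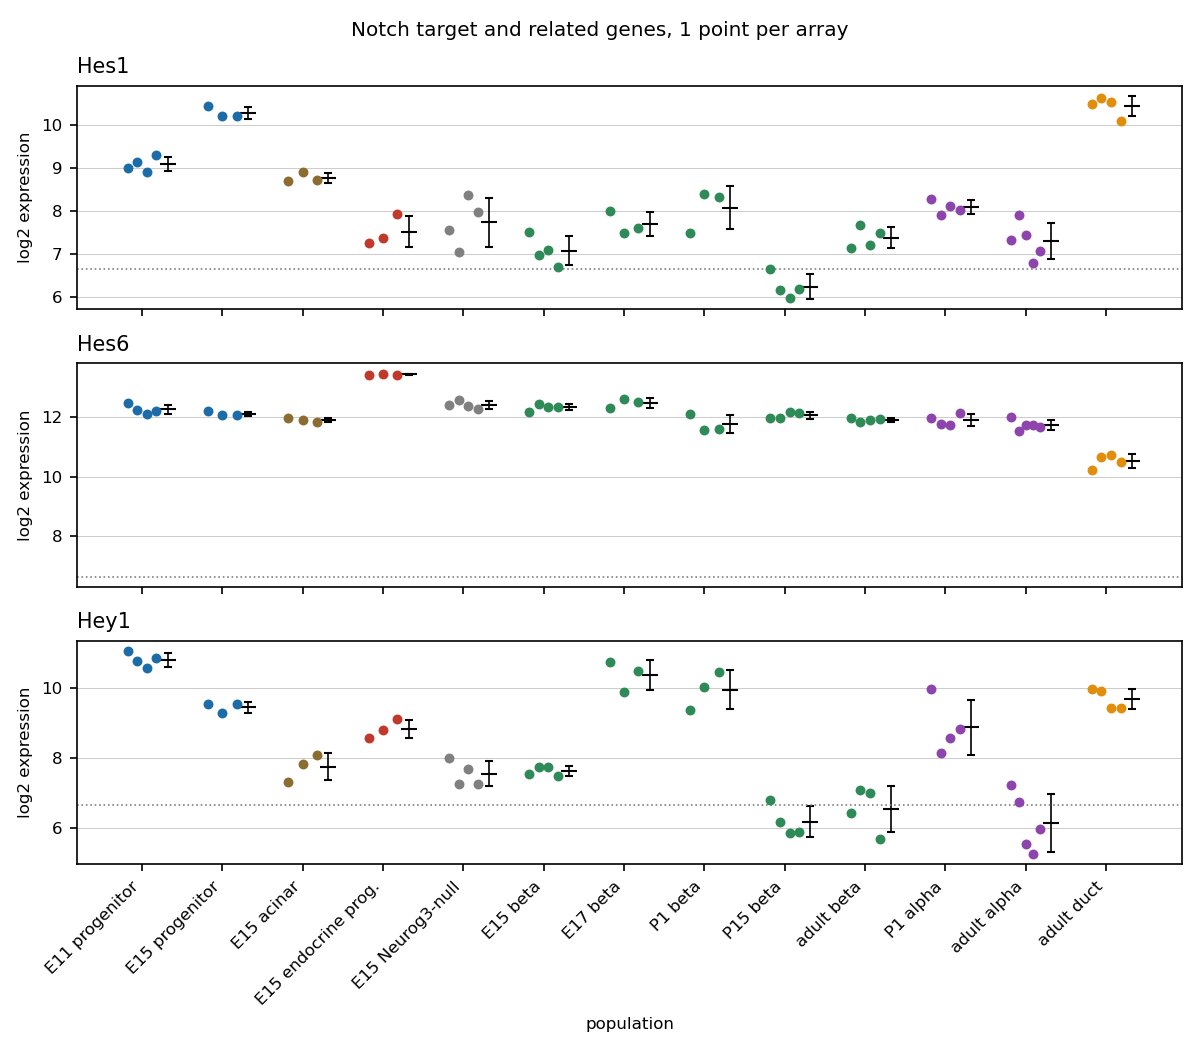
Log2 expression of Hes1, Hes6 and Hey1 on every array (points) with the mean and SD of each population (black), and a dotted line at 100 on the linear scale. Endocrine progenitors hold the highest Hes6 values, at 13.42 to 13.46, and low Hes1 values, at 7.24 to 7.92.

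Neurog3-null cells, from embryos homozygous for the eGFP knock-in at Neurog3, were compared with endocrine progenitors. Here loss of Neurog3 cannot be told apart from the reporter allele or from a different mix of cells. From Neurog3-null cells to endocrine progenitors 4 members were higher and 2 lower, where 14.2% of genes were called up and 18.7% down. The comparison shares its endocrine progenitor arrays with the one above, so the values are given side by side and not as separate support. All 15 macrophage markers tested were called lower in endocrine progenitors (mean 11.19 in null cells and 5.99 in endocrine progenitors), as were 9 of 14 endothelial markers (6.73 and 5.23) and 7 of 12 acinar markers (11.80 and 9.50). These lists differ along with genotype, and their part in the differences was not tested.

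The members that were higher include both Delta ligands. Dll1 read 6.81, 6.41, 6.50 and 7.42 in null cells and 8.80, 8.18 and 8.55 in endocrine progenitors. It was higher by 1.73 ± 0.33 (adjusted p = 3.3e-05) without overlap. Dll4 read 6.99, 6.83, 6.83 and 6.64 in null cells against the 9.00 to 9.33 above. It was higher by 2.36 ± 0.16 (5.12-fold, adjusted p = 3e-15).

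Hes6 was higher by 1.03 ± 0.13 (adjusted p = 1.6e-08), from 12.41, 12.57, 12.37 and 12.26 in null cells. Its difference sank to 0.98, under the minimum of 1, without Neurog3-null replicate 4, and the second Hes6 probe gave 1.94. Hey1 was higher by 1.29 ± 0.37 (adjusted p = 0.0032), from 7.98, 7.25, 7.67 and 7.25. Hes1 did not pass the test (-0.22 ± 0.25, adjusted p = 0.46), with arrays from 7.04 to 8.36 in null cells that overlapped those of endocrine progenitors.

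Notch1 was lower in endocrine progenitors than in null cells by 1.64 ± 0.18 (adjusted p = 4.3e-10), where null cells read 11.52, 11.40, 11.37 and 11.29. Its second probe gave a difference of -0.76, under the minimum. Jag1 was lower by 1.02 ± 0.23 (adjusted p = 0.00027). This call was lost without Neurog3-null replicate 3 (-0.99) or 4 (-0.90) or endocrine progenitor replicate 1 (-0.91), and the third Jag1 probe was not called. Notch2 (-0.90 ± 0.27, adjusted p = 0.0052) was under the minimum and was called without endocrine progenitor replicate 3 (-1.07) or Neurog3-null replicate 2 (-1.02).

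Against E15 progenitors, null cells had 5 members lower and 0 higher, where 7.80% of genes were called down and 9.74% up. All 15 macrophage markers tested (mean 5.63 in progenitors and 11.19 in null cells) and 8 of 14 endothelial markers (5.45 and 6.73) were called higher in null cells, and their part was not tested. Hes1 was lower by 2.55 ± 0.25 (adjusted p = 1.1e-10), Dll1 by 1.95 ± 0.33, Hey1 by 1.92 ± 0.37, Jag1 by 1.19 ± 0.23 and Notch3 by 1.12 ± 0.35. Dll4 (-0.27 ± 0.16, adjusted p = 0.19), Hes6 (0.29 ± 0.13, adjusted p = 0.073) and Notch1 (-0.25 ± 0.18, adjusted p = 0.26) did not pass the test. Of the 42 other pathway genes, 7 were higher and 8 lower in endocrine progenitors than in null cells. Numbl, a relative of the Notch inhibitor Numb, was higher by 3.85 ± 0.29, Rbpjl, an RBPJ relative of acinar cells, was lower by 3.36 ± 0.50, and Dtx4, a Deltex protein, was lower by 3.13 ± 0.27. From progenitors to null cells 4 were higher and 5 lower, led by Nrarp (-2.81 ± 0.43), Dtx1 (2.08 ± 0.28) and Hey2 (-1.93 ± 0.32).

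Promoter sequence is shown for Hes6, Dll1 and Dll4, which were higher in endocrine progenitors than in null cells, because Neurog3 belongs to the basic helix-loop-helix proteins, which are known to bind E-boxes. The letters are 250 bases before the RefSeq transcription start (GRCm38.p6), 5′ to 3′, with each E-box, CANNTG, in capitals. RefSeq gives 2 starts each for Hes6 and Dll1, and both are shown. The first is Hes6 at chr1:91414039-91414288, on the minus strand.
Hes6, start 1: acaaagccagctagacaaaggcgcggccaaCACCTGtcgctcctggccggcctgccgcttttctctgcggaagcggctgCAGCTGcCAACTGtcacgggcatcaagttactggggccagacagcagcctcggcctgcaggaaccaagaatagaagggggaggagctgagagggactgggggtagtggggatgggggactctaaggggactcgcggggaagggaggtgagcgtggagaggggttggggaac
The other Hes6 start has chr1:91413223-91413472 before it, on the minus strand.
Hes6, start 2: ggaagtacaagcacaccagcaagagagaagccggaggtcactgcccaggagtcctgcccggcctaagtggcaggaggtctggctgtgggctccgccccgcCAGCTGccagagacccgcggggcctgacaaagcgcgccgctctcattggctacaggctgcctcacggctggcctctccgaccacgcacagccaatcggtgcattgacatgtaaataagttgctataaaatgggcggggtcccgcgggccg
The second gene is Dll1 at chr17:15376933-15377182, on the minus strand.
Dll1, start 1: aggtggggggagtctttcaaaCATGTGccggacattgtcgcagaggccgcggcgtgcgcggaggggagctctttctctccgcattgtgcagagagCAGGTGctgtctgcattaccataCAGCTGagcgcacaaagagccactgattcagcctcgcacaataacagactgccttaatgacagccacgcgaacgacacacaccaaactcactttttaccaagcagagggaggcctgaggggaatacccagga
The other Dll1 start has chr17:15375824-15376073 before it, on the minus strand.
Dll1, start 2: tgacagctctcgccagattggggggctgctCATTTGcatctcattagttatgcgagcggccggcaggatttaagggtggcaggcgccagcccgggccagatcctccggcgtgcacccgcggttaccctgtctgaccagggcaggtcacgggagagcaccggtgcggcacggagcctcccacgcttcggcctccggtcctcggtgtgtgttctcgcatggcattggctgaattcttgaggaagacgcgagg
The third gene is Dll4 at chr2:119325534-119325783, on the plus strand, and holds no such capitals.
Dll4: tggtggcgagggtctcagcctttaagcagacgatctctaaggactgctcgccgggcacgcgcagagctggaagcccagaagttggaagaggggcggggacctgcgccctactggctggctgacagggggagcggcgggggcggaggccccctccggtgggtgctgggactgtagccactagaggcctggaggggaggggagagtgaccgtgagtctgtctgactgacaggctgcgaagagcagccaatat
The motif reads the same on both strands and was found 3 times before start 1 of Hes6 and of Dll1, and once before start 2 of each. Among members whose sequence is not printed, Jag1, lower in endocrine progenitors than in null cells, holds 1 (CAGCTG). Jag2, Notch1, Notch2 and Notch3 hold none. Of 32851 RefSeq promoters of 250 bases, 66.2% hold at least 1. The form CAGCTG, a subset of CANNTG, lies once before each Hes6 start, once before start 1 of Dll1 and not before its start 2, and in 4271 of all promoters, and CAGATG in none of the 5 windows shown and in 14.4% of all. The core of the RBPJ site, TGGGAA (both strands), lies in none of the 10 windows of the 8 members with sequence here and in 21.6% of all promoters. Hes1 and Hey1, the classical targets, have no sequence here and were not searched. Hey1 was also higher in endocrine progenitors than in null cells. A match is a description of these letters only.

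**Figure D3:**
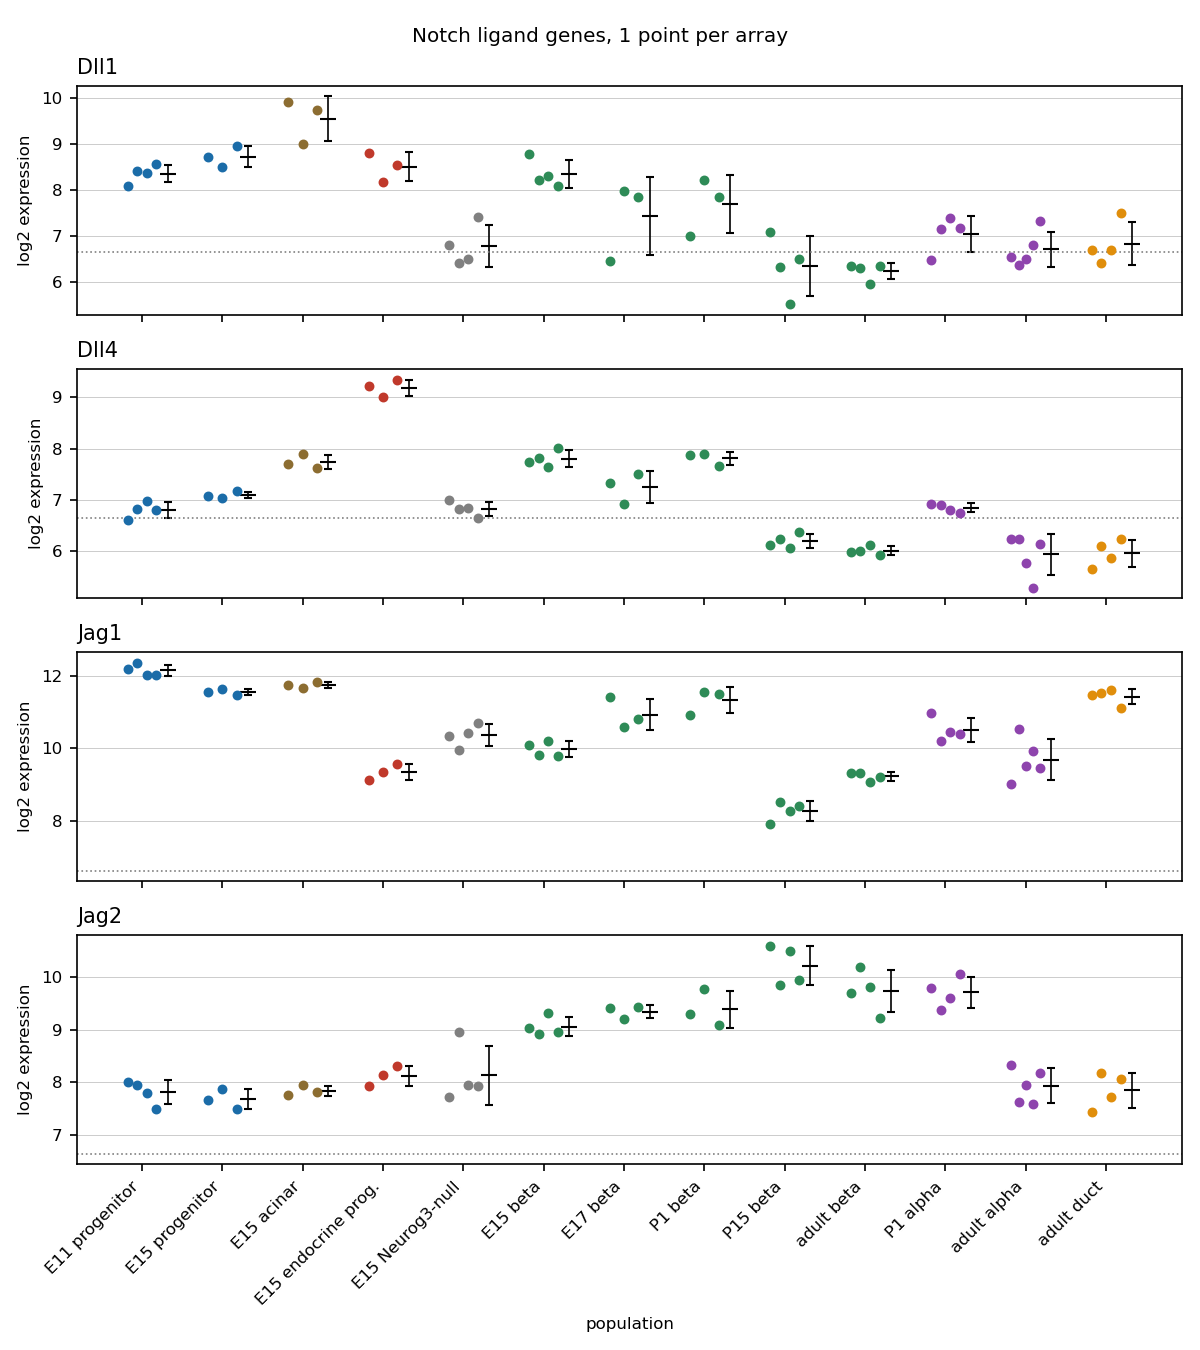
Log2 expression of Dll1, Dll4, Jag1 and Jag2 on every array (points) with the mean and SD of each population (black), and a dotted line at 100 on the linear scale. Dll4 is highest in endocrine progenitors, at 9.00 to 9.33, Dll1 is highest in acinar cells, and Jag2, by the representative probe shown, is highest in P15 beta cells.

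Progenitors of E11 and E15, which are the source of the lineages above, differed in both classical targets. Stage cannot be told apart here from the reporter, the sorting and the dorsal origin of the E11 cells. Hes1 rose and Hey1 fell, so 1 of 10 members was called in each direction, where 6.25% of genes were called up and 7.30% down. Hes1 read 9.01, 9.14, 8.91 and 9.30 at E11 against 10.20 to 10.45 at E15. It rose by 1.20 ± 0.25 (2.29-fold, adjusted p = 0.00026). Hey1 read 11.06, 10.77, 10.56 and 10.85 at E11, the highest mean of all populations, and fell by 1.36 ± 0.37 (adjusted p = 0.0051). The receptors and ligands did not pass both thresholds, with Jag1 nearest (-0.60 ± 0.23, adjusted p = 0.049). Acinar markers were called up in 7 of 12 cases (mean 8.46 to 11.15). Alpha cell markers went from 11.64 to 7.86, beta cell markers from 10.30 to 9.08 and duct markers from 9.81 to 11.24. The part of these lists was not tested. Of the other pathway genes 4 rose and 4 fell, led by Dtx1 (-3.06 ± 0.28), Rbpjl (2.13 ± 0.50) and Neurl1a (-1.67 ± 0.28), which encodes a ligand-directed ubiquitin ligase.

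From E15 progenitors to acinar cells, the enzyme-secreting lineage, 4 members fell and 0 rose, where 7.06% of genes were called down and 4.63% up. Notch3 fell by 3.02 ± 0.38 (8.1-fold, adjusted p = 8.5e-08), from 10.51, 10.33 and 10.44 to 7.58, 7.51 and 7.14. Notch2 fell by 1.42 ± 0.29 (not called with its probes averaged, -0.92), Hes1 by 1.51 ± 0.26 and Hey1 by 1.71 ± 0.39. Dll1 read 9.92, 9.01 and 9.73 in acinar cells, its highest mean of all, against 8.72, 8.51 and 8.96 in progenitors. That difference of 0.83 ± 0.36 did not pass the test (adjusted p = 0.10) and was called without acinar replicate 2 (1.10, adjusted p = 0.048). With this comparison 13 of 14 endothelial markers (5.45 in progenitors and 9.04 in acinar cells) and 4 of 12 mesenchyme and pericyte markers (6.58 and 7.27) were called up, and their part was not tested. Other pathway genes were called up in 3 cases and down in 2, led by Rbpjl (2.32 ± 0.53), Hes7 (2.06 ± 0.26) and Lfng (1.49 ± 0.36).

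**Figure D4:**
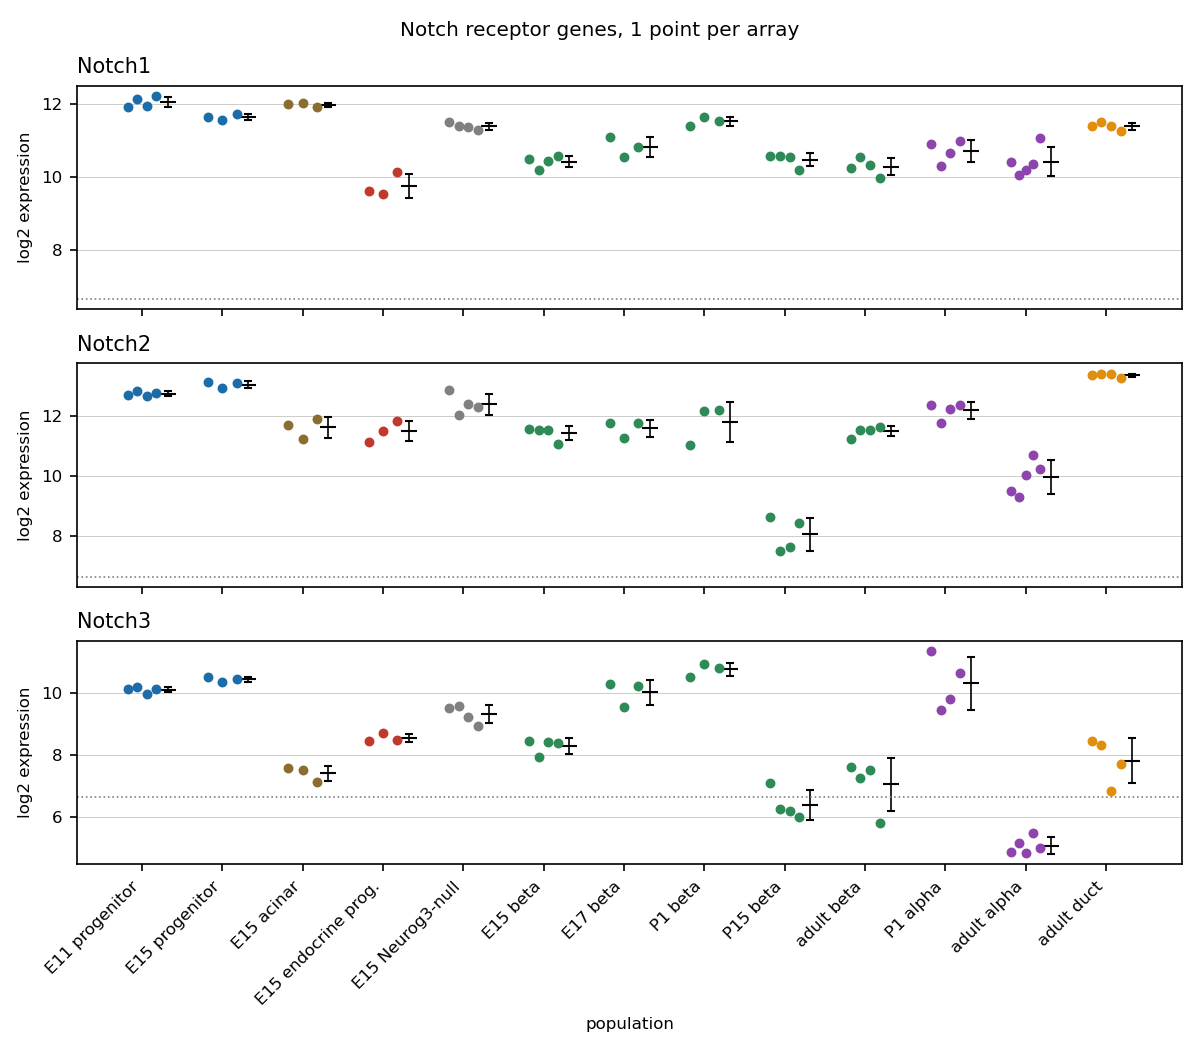
Log2 expression of Notch1, Notch2 and Notch3 on every array (points) with the mean and SD of each population (black), and a dotted line at 100 on the linear scale. Notch1 is lowest in endocrine progenitors, Notch2 is lowest in P15 beta cells and Notch3 is lowest in adult alpha cells.

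From endocrine progenitors to E15 beta cells, Dll4, Hes6 and Hey1 fell, 3 of 10 members where 4.57% of genes were called down and 6.69% up. Dll4 fell by 1.38 ± 0.16 (adjusted p = 2.1e-08), to 7.74, 7.81, 7.64 and 8.02, and Hes6 by 1.11 ± 0.13 (adjusted p = 1.8e-08), to 12.19, 12.43, 12.34 and 12.35. Hey1 fell by 1.21 ± 0.37 (adjusted p = 0.014), a call that was lost without endocrine progenitor replicate 3 (-1.07, adjusted p = 0.075). Jag2 was higher in beta cells by 0.93 ± 0.24 (adjusted p = 0.0038), under the minimum, and passed it (1.02) without the same array. Markers of other cells were called up over this step, 9 of 14 endothelial (mean 5.23 to 6.54), 7 of 12 mesenchyme and pericyte (7.99 to 9.38) and 10 of 15 macrophage markers (5.99 to 7.44), and their part was not tested. Of the other pathway genes 2 rose and 4 fell, led by Lfng (-2.51 ± 0.33), Dll3 (-2.01 ± 0.21) and Hey2 (1.85 ± 0.32), a relative of Hey1.

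From E15 to E17 the beta cell arrays gained Notch3 and Hey1, 2 of 10 members where 9.21% of genes were called up and 1.74% down. Notch3 read 8.46, 7.92, 8.40 and 8.38 at E15 and 10.28, 9.54 and 10.22 at E17, a rise of 1.72 ± 0.35 (adjusted p = 0.00035). Hey1 read 7.52, 7.74, 7.72 and 7.47 at E15 and 10.75, 9.89 and 10.49 at E17, a rise of 2.76 ± 0.37 (6.78-fold, adjusted p = 4.2e-07). Over the same step the endothelial markers went from 6.54 to 9.85 (13 of 14 called up), the mesenchyme and pericyte markers from 9.38 to 11.36 (10 of 12) and the macrophage markers from 7.44 to 8.69 (9 of 15). Notch3 is a known pericyte gene and Hey1 a known endothelial gene, and the part of those cells in the rises was not tested. Jag1 (0.94 ± 0.23) and Dll1 (-0.92 ± 0.33) were under the minimum and passed it without E17 replicate 2 (1.12 and -1.19) or 3 (1.01 and -1.14). Jag1 also passed without E15 replicate 3 (1.02) and Dll1 without E15 replicate 4 (-1.01). Among the other pathway genes 5 were called up and 1 down, led by Notch4 (3.21 ± 0.36), a receptor known from endothelium, Nrarp (2.56 ± 0.43) and Hey2 (1.98 ± 0.32).

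When E15, E17 and P1 beta cells were set against P15 and adult beta cells, each stage with equal weight, 6 members fell and 0 rose, where 14.8% of genes were called down and 6.37% up. The median was -1.52 over the members and -0.05 over all genes. Notch3 fell by 2.96 ± 0.22 (adjusted p = 1.4e-14), from 7.92 to 10.93 in the early arrays to 5.81 to 7.61 in the late ones. Hey1 fell by 2.96 ± 0.23 (adjusted p = 5.3e-14), and its late arrays lay between 5.67 and 7.08. At P15 and in adults 3 of 8 arrays exceeded 100 on the linear scale for Hey1 and 4 of 8 for Notch3, so the size of these falls is not exact.

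Jag1 fell by 1.98 ± 0.14 (adjusted p = 6.2e-15) and Notch2 by 1.83 ± 0.17 (adjusted p = 5.9e-12). The Notch2 arrays overlapped, because the adult mean of 11.48 lay among the early means of 11.42 to 11.79 and P15 at 8.04, and with its probes averaged Notch2 was not called (-0.70). The Delta ligands also fell, Dll1 by 1.53 ± 0.21 (adjusted p = 4.9e-08) and Dll4 by 1.52 ± 0.10 (adjusted p = 7.3e-16), and 0 of the 8 late arrays exceeded 100 for Dll4 and 1 of 8 for Dll1. Notch1, Hes1, Hes6 and Jag2 were not called, with Jag2 higher by 0.71 ± 0.15 on its representative probe and lower by 0.41 on the second. The endothelial markers were 6.54, 9.85 and 10.75 at the 3 early stages and 6.11 and 5.96 at the late ones (13 of 14 called down). Of the other lists 12 of 12 mesenchyme and pericyte and 4 of 5 Schwann and neural crest markers were called down, 5 of 15 macrophage and 6 of 12 acinar markers up, and their part was not tested. With E15 and P15 alone, where mesenchyme markers still differ (9.38 and 6.19), these 6 were also called and Jag2 was called up (1.16, adjusted p = 5.3e-05). This restriction was chosen after the data were seen, and it gave Notch3 -1.90 and Hey1 -1.45. Other pathway genes were called down in 10 cases and up in 1, led by Dlk1, a non-canonical ligand (-4.26 ± 0.32), Nrarp (-2.88 ± 0.27) and Hey2 (-2.58 ± 0.20).

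Between P15 and adult beta cells Notch2 and Hes1 rose, 2 of 10 members where 8.22% of genes were called up and 1.49% down. Notch2 read 8.62, 7.50, 7.64 and 8.41 at P15 and 11.23, 11.53, 11.53 and 11.63 in adults, a rise of 3.43 ± 0.25 (10.8-fold, adjusted p = 1.8e-13). The second Notch2 probe, under 100 on all these arrays, showed no such rise, with means of 6.39 at P15 and 6.37 in adults. Hes1 read 6.64, 6.15, 5.96 and 6.17 at P15, at or under 100 on all 4 arrays, and 7.14, 7.68, 7.21 and 7.47 in adults. The difference was 1.14 ± 0.23 (adjusted p = 0.00025), and its size is not exact. Macrophage markers went from 7.70 to 11.32 over the same step (14 of 15 called up) and mesenchyme and pericyte markers from 6.19 to 7.53 (6 of 12). Acinar markers went from 10.56 to 12.12, with overlapping arrays, and duct markers from 9.19 to 10.58. The part of these lists was not tested. Jag1 (0.95 ± 0.21) passed the minimum without P15 replicate 2 (1.03) or adult replicate 3 (1.01), and Notch3 (0.67 ± 0.33) without adult replicate 4 (1.08, adjusted p = 0.014). Of the other pathway genes 3 rose and 1 fell, led by Dlk1 (-3.05 ± 0.47), Lfng (2.60 ± 0.31) and Dtx4 (2.05 ± 0.25).

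**Figure D5:**
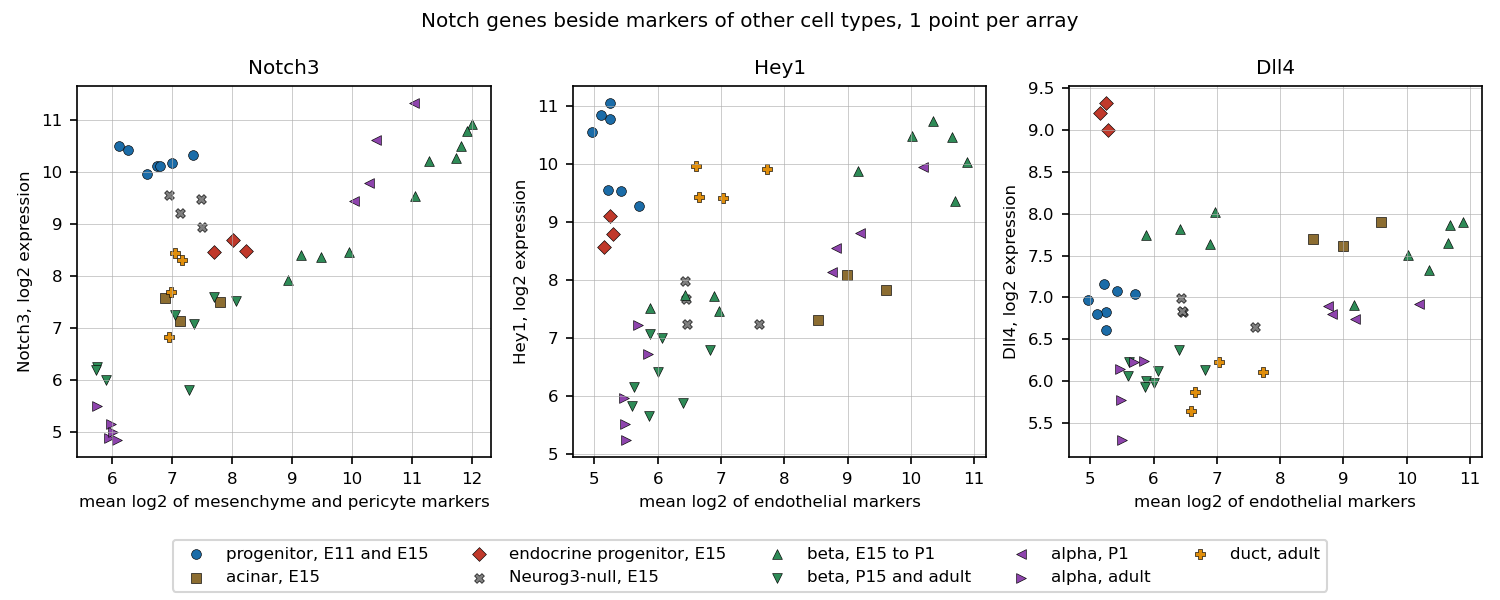
Log2 expression of Notch3, Hey1 and Dll4 on every array (vertical) against the mean log2 of mesenchyme and pericyte or endothelial markers on the same array (horizontal), with symbols for groups of populations. Progenitors hold Notch3 near 10 at mesenchyme means of 6.11 to 7.36, and endocrine progenitors hold Dll4 at 9.00 to 9.33 at endothelial means of 5.15 to 5.29. The part of other cell types in these levels was not tested.

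The progenitor arrays read 9.97 to 10.51 for Notch3 and 9.27 to 11.06 for Hey1, with means of 4.96 to 5.71 for endothelial and 6.11 to 7.36 for mesenchyme markers. The part of those cells was not tested.

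Alpha cells, the glucagon-secreting lineage, lost 4 members between P1 and adult and gained 0, where 15.7% of genes were called down and 6.87% up. Notch3 read 11.34, 9.44, 9.79 and 10.63 at P1, and in adults the lowest, median and highest array were 4.85, 5.01 and 5.51, all at or under 100. It fell by 5.21 ± 0.31 (adjusted p = 6.5e-17). Notch2 fell by 2.23 ± 0.24 (adjusted p = 5e-10), from 12.35, 11.75, 12.22 and 12.37 to 9.50, 9.28, 10.03, 10.69 and 10.23, and was not called with its probes averaged (-0.73). The second Notch2 probe, mostly under 100, pointed the other way, with means of 5.85 at P1 and 6.62 in adults. Hey1 fell by 2.73 ± 0.32 (adjusted p = 5.1e-09), with adult arrays from 5.24 to 7.23. Jag2 fell by 1.78 ± 0.21 (adjusted p = 5.4e-09), whereas its second probe gave -0.54 (adjusted p = 0.011). Endothelial markers went from 9.24 to 5.60 (13 of 14 called down), mesenchyme and pericyte markers from 10.44 to 5.96 (10 of 12), macrophage markers from 7.56 to 5.87 (10 of 15) and Schwann and neural crest markers from 8.52 to 5.81 (5 of 5), and their part was not tested. Jag1 (-0.82 ± 0.20) passed the minimum without adult alpha replicate 2 (-1.03). Among the other pathway genes 3 were called up and 9 down, led by Dlk1 (-7.12 ± 0.45), Nrarp (-4.10 ± 0.38) and Hey2 (-3.26 ± 0.28).

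At P1 alpha and beta cells differed in 1 member, Hey1, higher in beta cells by 1.09 ± 0.37 (adjusted p = 0.015), where 13.7% of genes were called up and 6.39% down. Its arrays overlapped, at 9.96, 8.15, 8.56 and 8.81 in alpha and 9.36, 10.03 and 10.47 in beta cells. In the same direction 10 of 14 endothelial (mean 9.24 in alpha and 10.75 in beta cells), 8 of 12 mesenchyme and pericyte (10.44 and 11.92) and 13 of 15 macrophage markers (7.56 and 9.76) were called higher in beta cells, and their part was not tested. The call was lost with the replicate block (0.97), in a fit of only these arrays (adjusted p = 0.069) and without P1 alpha replicate 2 (0.85) or 3 (0.98) or P1 beta replicate 3 (0.83). Jag1 passed without P1 beta replicate 1 (1.02) and Dll4 without P1 beta replicate 3 (1.04), and the second Dll4 probe was called up (1.02). The 2 Jag2 probes disagreed, since the representative probe gave -0.32 (adjusted p = 0.29) and the second probe 1.79 (adjusted p = 5.5e-09), with P1 alpha means of 9.72 and 7.10. Other pathway genes were called up in 9 cases and down in 1, led by Dlk1 (2.25 ± 0.51), Dtx4 (1.52 ± 0.27) and Kat2a (1.43 ± 0.21), an acetyltransferase.

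In adults, beta cells had higher Jag2, Notch3 and Notch2 than alpha cells, 3 of 10 members where 12.0% of genes were called up and 5.61% down. Jag2 read 9.71, 10.19, 9.82 and 9.22 in beta cells, and 7.59, 7.96 and 8.34 as lowest, median and highest in alpha cells. It was higher by 1.80 ± 0.21 (3.47-fold, adjusted p = 5.1e-09), and its second probe was also called (1.23). Notch3 was higher by 1.97 ± 0.31 from alpha arrays all at or under 100, so that its size is not exact, and Notch2 by 1.53 ± 0.24 (0.64 and not called with its probes averaged). The second Notch2 probe gave means of 6.62 in alpha and 6.37 in beta cells. Also higher in beta cells were 15 of 15 macrophage markers (mean 5.87 in alpha and 11.32 in beta cells), 5 of 12 mesenchyme and pericyte markers (5.96 and 7.53) and 11 of 12 acinar markers (8.74 and 12.12), and their part was not tested. Among the other pathway genes 5 were called up and 1 down, led by Dlk1 (3.51 ± 0.45), Lfng (2.07 ± 0.29) and Nrarp (2.06 ± 0.38).

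The change from P1 to adult was itself tested for a difference between alpha and beta cells, and 2 of 10 members were called up and 3 down, where 11.6% of genes were called up and 11.8% down. Notch2 changed by -2.23 in alpha and -0.31 in beta cells, a difference of -1.92 ± 0.36 (adjusted p = 7.4e-05). Notch3 changed by -5.21 and -3.69, a difference of -1.52 ± 0.47 (adjusted p = 0.010). Jag1 changed by -0.82 and -2.09 (1.27 ± 0.31, adjusted p = 0.0012), Jag2 by -1.78 and 0.34 (-2.12 ± 0.32, adjusted p = 2.4e-06) and Dll1 by -0.34 and -1.46 (1.11 ± 0.44, adjusted p = 0.048). The second Jag2 probe pointed the other way (0.56, adjusted p = 0.11). In the same test 15 of 15 macrophage markers were called down (mean 7.56 to 5.87 in alpha and 9.76 to 11.32 in beta cells) and 8 of 14 endothelial markers up (9.24 to 5.60 and 10.75 to 5.96). Mesenchyme and pericyte markers were called up in 5 and down in 3 of 12 cases, and acinar markers down in 3 of 12. The acinar markers also set adult alpha replicates 1 and 2 apart. The part of these cells was not tested. The Dll1 call was lost on leaving out any adult beta array, P1 beta replicate 2 (adjusted p = 0.18) or 3, P1 alpha replicate 1, 2 or 4, or adult alpha replicate 4 or 5, with the replicate block (adjusted p = 0.067) and with no filter on low probes (adjusted p = 0.059). The Notch3 call was lost in a fit of only the arrays compared (adjusted p = 0.065), and averaging the probes took Notch2 (-0.76), Jag1 (0.80) and Jag2 (-0.78) under the minimum. Notch1 (0.96 ± 0.24) passed it without P1 beta replicate 1 (1.03), adult beta replicate 2 (1.05), P1 alpha replicate 1 (1.02) or 4 (1.05), or adult alpha replicate 2 (1.05) or 3 (1.01), and Dll4 (0.89 ± 0.22) without adult alpha replicate 4 (1.05). Of the other pathway genes 5 were called up and 3 down, led by Rfng (1.73 ± 0.26), Notch4 (1.56 ± 0.47) and Kat2a (1.51 ± 0.28).

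Adult duct cells, the other mature lineage of the E15 progenitor, held 4 members lower and 0 higher than that progenitor, where 19.6% of genes were called down and 15.1% up. Notch3 fell by 2.61 ± 0.35 (adjusted p = 4.6e-08), to 8.44, 8.31, 6.84 and 7.70, and Dll1 by 1.90 ± 0.33 (adjusted p = 5.9e-06). Hes6 fell by 1.59 ± 0.13 (adjusted p = 2.3e-13), to 10.21, 10.66, 10.71 and 10.51, its lowest mean of all populations. Dll4 fell by 1.13 ± 0.16, to 5.64, 6.10, 5.87 and 6.23, all at or under 100, and was not called with its probes averaged (-0.99). Macrophage markers were 5.63 in progenitors and 11.44 in duct cells (15 of 15 called up) and endothelial markers 5.45 and 7.00 (9 of 14). Acinar markers were 11.15 in progenitors and 12.79 in duct cells, their highest mean of all populations. The part of these lists was not tested. Hes1 (0.15 ± 0.25, adjusted p = 0.62), Hey1 (0.23 ± 0.37, adjusted p = 0.62), Notch2 (0.31 ± 0.27, adjusted p = 0.34) and Jag1 (-0.12 ± 0.23, adjusted p = 0.68) did not pass the test, which does not show that they were equal. Other pathway genes were called up in 5 cases and down in 7, led by Dlk1 (-9.46 ± 0.51), Dtx1 (4.03 ± 0.28) and Nrarp (-3.43 ± 0.43).

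Set against adult beta cells, duct cells had 5 members higher and 2 lower, where 15.7% of genes were called up and 17.1% down. Hes1 read 10.50, 10.62, 10.54 and 10.09 in duct cells and 7.14, 7.68, 7.21 and 7.47 in beta cells. It was higher by 3.06 ± 0.23 (8.36-fold, adjusted p = 1.2e-14). Hey1 read 9.97, 9.91, 9.43 and 9.42 against 6.42, 7.08, 7.00 and 5.67 and was higher by 3.14 ± 0.34 (adjusted p = 3.1e-10). Jag1 was higher by 2.19 ± 0.21, Notch2 by 1.86 ± 0.25 and Notch1 by 1.11 ± 0.16 (0.92 with its probes averaged, under the minimum), whereas Jag2 was lower by 1.89 ± 0.22 and Hes6 by 1.39 ± 0.12. Notch3 (0.77 ± 0.33) passed the minimum without duct replicate 3 (1.09). Macrophage markers were high in both, at 11.44 in duct and 11.32 in beta cells, and 6 of 14 endothelial markers were higher in duct cells (5.96 in beta and 7.00 in duct cells), whose part was not tested. Among the other pathway genes 8 were called up and 5 down, led by Dlk1 (-4.34 ± 0.47), Hey2 (2.68 ± 0.30) and Neurl1a (-2.25 ± 0.26).

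The full order of levels is given here by role, as a description. Notch1 was highest in E11 progenitors (12.06 ± 0.14), followed by acinar cells (11.98 ± 0.05), E15 progenitors (11.65 ± 0.08) and P1 beta cells (11.53 ± 0.13). Its middle levels were Neurog3-null cells (11.39 ± 0.10), duct cells (11.39 ± 0.10), E17 beta cells (10.83 ± 0.28), P1 alpha cells (10.71 ± 0.31) and P15 beta cells (10.47 ± 0.19). The lowest were E15 beta cells (10.42 ± 0.16), adult alpha cells (10.42 ± 0.40), adult beta cells (10.28 ± 0.24) and endocrine progenitors (9.75 ± 0.32). Arrays of neighbours stayed apart only between acinar cells and E15 progenitors, and between duct cells and E17 beta cells.

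The order of Notch2 began with duct cells (13.34 ± 0.06), with E15 progenitors (13.03 ± 0.11), E11 progenitors (12.73 ± 0.08) and Neurog3-null cells (12.38 ± 0.35) next. In the middle stood P1 alpha cells (12.17 ± 0.29), P1 beta cells (11.79 ± 0.66), acinar cells (11.61 ± 0.34), E17 beta cells (11.58 ± 0.28) and endocrine progenitors (11.49 ± 0.34). It ended with adult beta cells (11.48 ± 0.17), E15 beta cells (11.42 ± 0.24), adult alpha cells (9.95 ± 0.57) and P15 beta cells (8.04 ± 0.56). Neighbours showed no overlap between duct cells and E15 progenitors, between E15 progenitors and E11 progenitors, between E15 beta cells and adult alpha cells, and between adult alpha cells and P15 beta cells.

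For Notch3 the highest means were those of P1 beta cells (10.75 ± 0.22), then E15 progenitors (10.43 ± 0.09), P1 alpha cells (10.30 ± 0.85) and E11 progenitors (10.10 ± 0.09). Then came E17 beta cells (10.01 ± 0.41), Neurog3-null cells (9.30 ± 0.29), endocrine progenitors (8.55 ± 0.13), E15 beta cells (8.29 ± 0.25) and duct cells (7.82 ± 0.73). At the bottom stood acinar cells (7.41 ± 0.24), adult beta cells (7.06 ± 0.84), P15 beta cells (6.39 ± 0.48) and adult alpha cells (5.09 ± 0.27). The steps clear of overlap lay between Neurog3-null cells and endocrine progenitors, between endocrine progenitors and E15 beta cells, and between P15 beta cells and adult alpha cells.

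Among ligands the orders differed. Dll1 was highest in acinar cells (9.55 ± 0.48), followed by E15 progenitors (8.73 ± 0.22), endocrine progenitors (8.51 ± 0.31) and E11 progenitors (8.36 ± 0.19). Its middle levels were E15 beta cells (8.35 ± 0.30), P1 beta cells (7.69 ± 0.63), E17 beta cells (7.43 ± 0.85), P1 alpha cells (7.05 ± 0.39) and duct cells (6.83 ± 0.47). The lowest were Neurog3-null cells (6.78 ± 0.46), adult alpha cells (6.71 ± 0.38), P15 beta cells (6.35 ± 0.65) and adult beta cells (6.23 ± 0.18). Arrays of neighbours stayed apart only between acinar cells and E15 progenitors.

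The order of Dll4 began with endocrine progenitors (9.18 ± 0.16), with P1 beta cells (7.81 ± 0.13), E15 beta cells (7.80 ± 0.16) and acinar cells (7.74 ± 0.14) next. In the middle stood E17 beta cells (7.25 ± 0.31), E15 progenitors (7.09 ± 0.07), P1 alpha cells (6.84 ± 0.09), Neurog3-null cells (6.82 ± 0.14) and E11 progenitors (6.80 ± 0.15). It ended with P15 beta cells (6.20 ± 0.14), adult beta cells (6.01 ± 0.09), duct cells (5.96 ± 0.26) and adult alpha cells (5.94 ± 0.41). Neighbours showed no overlap between endocrine progenitors and P1 beta cells, between acinar cells and E17 beta cells, between E15 progenitors and P1 alpha cells, and between E11 progenitors and P15 beta cells.

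For Jag1 the highest means were those of E11 progenitors (12.15 ± 0.16), then acinar cells (11.74 ± 0.08), E15 progenitors (11.55 ± 0.08) and duct cells (11.43 ± 0.21). Then came P1 beta cells (11.33 ± 0.35), E17 beta cells (10.93 ± 0.43), P1 alpha cells (10.51 ± 0.32), Neurog3-null cells (10.36 ± 0.30) and E15 beta cells (9.98 ± 0.21). At the bottom stood adult alpha cells (9.69 ± 0.57), endocrine progenitors (9.34 ± 0.22), adult beta cells (9.24 ± 0.13) and P15 beta cells (8.29 ± 0.27). The steps clear of overlap lay between E11 progenitors and acinar cells, between acinar cells and E15 progenitors, and between adult beta cells and P15 beta cells.

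Jag2 was highest in P15 beta cells (10.22 ± 0.38), followed by adult beta cells (9.74 ± 0.40), P1 alpha cells (9.72 ± 0.29) and P1 beta cells (9.39 ± 0.36). Its middle levels were E17 beta cells (9.35 ± 0.12), E15 beta cells (9.06 ± 0.18), Neurog3-null cells (8.14 ± 0.56), endocrine progenitors (8.13 ± 0.19) and adult alpha cells (7.94 ± 0.33). The lowest were duct cells (7.85 ± 0.34), acinar cells (7.84 ± 0.10), E11 progenitors (7.81 ± 0.23) and E15 progenitors (7.68 ± 0.19). No 2 neighbours were without overlap of their arrays. By the second Jag2 probe P1 beta cells were highest (8.89 ± 0.35), then E17 beta (8.66 ± 0.11) and P15 beta cells (8.52 ± 0.16). P1 alpha cells gave 7.10 ± 0.17 by that probe.

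The target-family genes come last. The order of Hes1 began with duct cells (10.44 ± 0.24), with E15 progenitors (10.29 ± 0.14), E11 progenitors (9.09 ± 0.17) and acinar cells (8.77 ± 0.11) next. In the middle stood P1 alpha cells (8.08 ± 0.16), P1 beta cells (8.07 ± 0.50), Neurog3-null cells (7.73 ± 0.57), E17 beta cells (7.69 ± 0.27) and endocrine progenitors (7.51 ± 0.36). It ended with adult beta cells (7.38 ± 0.25), adult alpha cells (7.30 ± 0.42), E15 beta cells (7.07 ± 0.34) and P15 beta cells (6.23 ± 0.29). Neighbours showed no overlap between E15 progenitors and E11 progenitors, between E11 progenitors and acinar cells, between acinar cells and P1 alpha cells, and between E15 beta cells and P15 beta cells.

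For Hes6 the highest means were those of endocrine progenitors (13.43 ± 0.03), then E17 beta cells (12.47 ± 0.16), Neurog3-null cells (12.40 ± 0.13) and E15 beta cells (12.33 ± 0.10). Then came E11 progenitors (12.26 ± 0.16), E15 progenitors (12.11 ± 0.07), P15 beta cells (12.06 ± 0.12), adult beta cells (11.91 ± 0.07) and acinar cells (11.91 ± 0.06). At the bottom stood P1 alpha cells (11.90 ± 0.20), P1 beta cells (11.76 ± 0.31), adult alpha cells (11.74 ± 0.18) and duct cells (10.52 ± 0.22). The steps clear of overlap lay between endocrine progenitors and E17 beta cells, and between adult alpha cells and duct cells.

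Hey1 was highest in E11 progenitors (10.81 ± 0.21), followed by E17 beta cells (10.38 ± 0.44), P1 beta cells (9.95 ± 0.56) and duct cells (9.68 ± 0.30). Its middle levels were E15 progenitors (9.45 ± 0.16), P1 alpha cells (8.87 ± 0.78), endocrine progenitors (8.83 ± 0.26), acinar cells (7.75 ± 0.39) and E15 beta cells (7.61 ± 0.14). The lowest were Neurog3-null cells (7.54 ± 0.36), adult beta cells (6.54 ± 0.65), P15 beta cells (6.17 ± 0.44) and adult alpha cells (6.14 ± 0.83). Arrays of neighbours stayed apart only between endocrine progenitors and acinar cells, and between Neurog3-null cells and adult beta cells.

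The other probes of a gene followed the representative probe across the 13 population means with r from 0.76 (Jag2) to 0.99 (Dll4), apart from the second Notch2 probe (r = -0.09). The representative Hes6 probe is of a kind whose oligonucleotides may match other transcripts, and its second probe gave r = 0.92. These correlations are over means of the same arrays and are descriptions.

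The genes whose 13 population means were most like those of a member, among 14404 others, were found by Pearson r, with no p, since the points share arrays and a common normalization. For Notch1 they were Pprc1, Acsl3 and Decr1 (r from 0.91 to 0.94), for Notch2 Amot, Agrn and Ajuba (0.93 each), and for Notch3 Igfbp5, Fn1 and Chsy1 (0.92 to 0.93). Among ligands Dll1 had Terf1, Elavl1 and G2e3 (0.95 to 0.96), Dll4 had Tmem63b, D930003E18Rik and Mfng (0.89 to 0.90), Jag1 had Gpc6, Prrg1 and Slc16a1 (0.92 to 0.94) and Jag2 had Tph2, Rnf182 and Fkbp1b (0.95 to 0.96). For Hes1 they were Tgif1, Mtmr12 and Cxadr (0.94 each), for Hes6 Psmc2, Tdrkh and Dach2 (0.90 to 0.91), and for Hey1 Qk, Ddah2 and Rbms1 (0.90 to 0.91). Mfng, the Fringe enzyme close to Dll4, is itself one of the pathway genes, at 10.83 ± 0.14 in endocrine progenitors and 7.19 ± 0.10 in E15 progenitors.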

How the data were processed

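The samples were hybridized by the authors to Affymetrix mouse expression arrays after amplification of the RNA, and 48 arrays of 13 populations were used. The authors deposited log2 values for 45101 probes, made by RMA in R 2.11.1, a method that removes background, gives the arrays a common distribution and summarises each probe's oligonucleotides. The log2 values hold none missing, no pair of arrays is identical, and array medians lie between 6.58 and 6.88. Arrays give no counts, so their number limits precision. Gene names came from the platform annotation: 34958 probes name 1 gene, 932 several and 9211 none, and only the first were named, for 18194 genes.

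Probes above 100 on the linear scale in at least 1 array were kept, 32078 of them, whether or not they name 1 gene. For 14405 genes the representative probe, that with the highest mean, was among them. One mean per population was fitted over all arrays with limma 3.58.1 in R 4.3.3, and p-values were adjusted by Benjamini-Hochberg over all probes tested. Calls required an adjusted p below 0.05 together with a log2 difference of 1 or more. For the share of genes called, each of these 14405 genes counts by its representative probe. Comparisons that share arrays, such as the 4 that use E15 progenitors as the first population, are not independent.

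Members, pathway genes and marker lists were chosen with earlier results of these data known. The text names all 10 members, for each comparison up to 3 called genes of the pathway list with the largest difference, and for each member the 3 genes most like it. Of 49 other pathway genes listed, 45 have a probe of their own and 42 were tested. Promoters came from RefSeq (GRCm38.p6) for 8 of 10 members, all except Hes1 and Hey1. The fit was tested on simulated data with 200 changed probes of 32078, otherwise equal population means and independent noise. For E15 progenitors to endocrine progenitors it recovered 89.6% of changes of 2, with 4 false calls. In the data 6158 probes were called in that comparison, so these rates need not hold there.

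Replicate numbers could mark samples made together. For E11 and E15 progenitors all 3 same-numbered pairs had correlated deviations (r from 0.106 to 0.148), and for no other comparison did all pairs exceed 0.1. With the replicate block 3603 probes were called there and 3630 without it. What a replicate number marks is not given in the sources used here. The alternatives in the closing section are other normalization, filters, weights, probes, tests, blocks and left-out arrays.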

Additional observations from a re-analysis of the deposited data

Results flagged for a closer look

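In 80 groups of 4 or 5 arrays, 1 array stood far from the others of its population in 4 cases, where chance alone gives about 1 in 20. Notch1 read 10.20 in P15 beta replicate 4 and 10.54 to 10.58 on the other arrays. Notch2 read 11.06 in E15 beta replicate 4 against 11.53 to 11.56. Notch3 read 7.92 in E15 beta replicate 2 against 8.38 to 8.46, and Dll1 read 5.96 in adult beta replicate 3 against 6.30 to 6.34, where all 4 of these Dll1 values were under 100 on the linear scale.

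The change from P1 to adult differed between alpha and beta cells by a test of the difference itself for 5 members. The difference, alpha minus beta, was -1.92 for Notch2, -1.52 for Notch3, 1.11 for Dll1, 1.27 for Jag1 and -2.12 for Jag2. For Jag2 this rests on the representative probe, since the second probe gave 0.56.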

How the results depend on the processing

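Of 61 member differences that were called, 45 kept their call under every alternative run and 16 lost it under at least 1, while 0 of the 61 changed direction. No alternative used another probe of a gene by itself. The second Jag2 probe pointed the other way in the difference in maturation. So did the second Notch2 probe there, from P1 to adult alpha, from early to late beta and from adult alpha to adult beta cells. The number of members called stayed within 1.5 times in most alternatives. With no minimum difference it was 6 in place of 3 from endocrine progenitors to E15 beta cells, 5 in place of 2 from E15 to E17 beta cells, 10 in place of 6 from early to late beta cells, 7 in place of 4 from P1 to adult alpha cells and 4 in place of 1 from P1 alpha to P1 beta cells. With the probes of a gene averaged it was 3 in place of 5 for the difference in maturation between alpha and beta cells. From P1 alpha to P1 beta cells it was 0 with the replicate block, in a fit of only the compared arrays and with the methods' t-test, and it ranged from 0 to 2 when single arrays were left out. From E15 to E17 beta cells that range was 2 to 4. The methods' t-test was not run for the difference in maturation.

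The replicate block changed 1 other call, that of Dll1 in the difference in maturation (1.04, adjusted p = 0.067). With no filter on low probes that Dll1 call was also lost (1.11, adjusted p = 0.059). The replicate block in effect drops adult alpha replicate 5, whose number no other array has, and the block turned Notch1 from adult alpha to adult beta cells to 0.023.

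Some differences that were not called changed sign. Quantile normalization again gave -0.064 for Hes1 from adult alpha to beta cells and 0.042 for Dll4 from adult beta to duct cells. Averaged probes gave -0.054 for Jag1 in acinar cells, 0.26 for Jag2 from null cells to endocrine progenitors, -0.14 for Notch2 and -0.016 for Hes6 from E15 to E17 beta cells, and 0.049 for Hes6 from P1 to adult alpha cells. They also gave 0.73 for Jag2 and 0.21 for Hes6 from P1 alpha to beta cells, -0.049 for Dll4 from adult alpha to beta cells and 0.0056 for Dll4 from adult beta to duct cells. Array weights gave 0.091 for Jag2 from null cells to endocrine progenitors, 0.18 for Dll1 from P15 to adult beta cells and 0.13 for Hes1 from P1 alpha to beta cells. E15 against P15 alone gave 0.051 for Notch1. With single arrays left out, Jag2 from null cells to endocrine progenitors ranged from -0.15 to 0.27, Notch2 from endocrine progenitors to E15 beta cells from -0.24 to 0.10, and Dll1 from P15 to adult beta cells from -0.40 to 0.13. Hes1 ranged from -0.17 to 0.28 from P1 alpha to beta cells, from -0.24 to 0.20 in the difference in maturation and from -0.055 to 0.23 from adult alpha to beta cells. Dll4 ranged from -0.090 to 0.15 from adult alpha to beta cells and from -0.14 to 0.060 from adult beta to duct cells, and Notch1 from -0.24 to 0.023 from adult alpha to beta cells. The cause of these changes was not tested.

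Signal near or under 100 limits Dll1, Dll4, Notch3, Hey1 and Hes1 in late beta, adult alpha or duct cells, where sizes are not exact.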
